A study of Mus musculus with 12 samples.

Results

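Interferon-stimulated genes are transcripts that cells raise when interferon reaches them, and a low level of many of them is also kept in resting cells. Here 45 of the 24411 genes in the deposited count table were examined in colonic myofibroblasts, mouse cells of the connective tissue under the gut epithelium, from mice labelled as lacking tumor necrosis factor receptor 1 (TNFR1) and from heterozygous mice. They were taken by gene symbol from a list of interferon-induced genes and interferon signalling factors, with antigen presentation genes left out. All 45 were in the table, and 44 passed the filter on low counts. The exception was Mx1, with at most 5 counts in any knockout library. A further 7 (Zbp1, Oas1b, Oas2, Mx2, Gbp7, Iigp1 and Rsad2) passed the filter only through the control libraries, so a difference was built into their passing, and 6 of these 7 are among the genes called below.

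Of these 44 genes, 36 fell in the knockout libraries (81.8%), against 21.6% of all 12146 genes tested, and none rose, against 21.4%. The test was the edgeR quasi-likelihood test with Benjamini-Hochberg adjustment over all genes tested, at a threshold of 0.05. The median log2 difference, knockout minus control, was -1.41 over the 44 genes and 0.02 over all genes tested. Among the 36 called genes the difference ran from 1.33-fold lower for Adar to 15.1-fold lower for Zbp1, and 28 were more than 2-fold lower. The remaining 8 genes (Stat2, Eif2ak2, Ifit2, Gbp2, Irgm1, Iigp1, Ifi35 and Samd9l) did not pass. These p-values measure the spread between libraries, which may be technical, and with the counts summed over 4 sets of very similar libraries no gene passed, as described below. In bulk RNA, fewer cells with a transcript and less of it per cell cannot be told apart.

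The 6 knockout libraries came from TNFR1-/- mice and the 6 control libraries from heterozygous mice (TNFR1+/-, also written TNFR1-/+), all on a C57BL/6 background. Cells were taken from the distal colon of mice aged 16 weeks, grown to passage 6 to 8 and left untreated, so no interferon or TNF was added in either group. RNA was collected on day 5 in Matrigel, a basement membrane gel. How many animals or cultures lie behind each group of 6 libraries is not given in the labels, and the cells had been expanded in culture before sequencing.

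Type I interferons, such as interferon beta, bind a receptor made of IFNAR1 and IFNAR2. The receptor's Janus kinases activate STAT proteins, and STAT2 together with IRF9 carries the signal to a promoter element called the interferon-stimulated response element (ISRE). TNF is known to raise interferon beta and IRF1 at a low level in several cell types, and fibroblasts hold interferon-stimulated genes at a steady low level without infection.

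The ISRE is shown here because genes with it were found both among those that fell and among those that did not pass the test. A core ISRE was searched as GAAA, then 2 bases of any kind, then GAAA again, on both strands, overlapping matches included, in the RefSeq promoter windows of build GRCm38.p6, which run from 250 bases before to 50 bases after a gene's start. Of the 45 genes, 34 had such a window, and 15 of the 34 (44.1%) held the core, against 1079 of 27025 genes with a window (3.99%). It was in 11 of 27 genes that fell (40.7%) and in 4 of 7 that did not pass the test (57.1%). A second element, the gamma-activated site, was searched as TTCNNNGAA on both strands and was in 12 of the 34 genes (35.3%), against 9.55% of all genes with a window. The genes were listed as interferon-induced, so shares above those of all genes are no finding about these libraries. These matches describe letters in the reference and do not show binding. The windows of 3 genes that fell, Isg15 (chr4:156200769-156201068, minus strand), Ifit1 (chr19:34640639-34640938, plus strand) and Oas1a (chr5:120907476-120907775, minus strand), are printed with that of Irgm1 (chr11:48871371-48871670, minus strand), which did not pass. Each is written 5′ to 3′ along the gene's strand with the ISRE core matches, on either strand, in capitals.
Isg15: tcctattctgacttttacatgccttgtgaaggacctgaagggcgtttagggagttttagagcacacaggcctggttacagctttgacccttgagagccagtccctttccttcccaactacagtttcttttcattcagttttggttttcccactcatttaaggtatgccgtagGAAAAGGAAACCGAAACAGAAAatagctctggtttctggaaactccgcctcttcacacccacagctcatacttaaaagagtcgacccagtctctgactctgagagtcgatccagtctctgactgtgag
Ifit1: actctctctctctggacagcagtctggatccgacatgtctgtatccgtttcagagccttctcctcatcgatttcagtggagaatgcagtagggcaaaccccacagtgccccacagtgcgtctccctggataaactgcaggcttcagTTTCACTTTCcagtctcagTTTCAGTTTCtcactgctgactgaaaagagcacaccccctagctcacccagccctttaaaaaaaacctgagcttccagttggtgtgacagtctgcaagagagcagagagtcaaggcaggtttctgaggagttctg
Oas1a: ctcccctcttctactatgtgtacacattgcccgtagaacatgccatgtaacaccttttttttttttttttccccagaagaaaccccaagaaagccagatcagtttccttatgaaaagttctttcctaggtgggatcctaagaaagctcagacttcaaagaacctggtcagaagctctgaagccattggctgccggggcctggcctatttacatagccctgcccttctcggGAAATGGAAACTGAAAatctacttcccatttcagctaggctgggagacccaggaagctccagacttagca
Irgm1: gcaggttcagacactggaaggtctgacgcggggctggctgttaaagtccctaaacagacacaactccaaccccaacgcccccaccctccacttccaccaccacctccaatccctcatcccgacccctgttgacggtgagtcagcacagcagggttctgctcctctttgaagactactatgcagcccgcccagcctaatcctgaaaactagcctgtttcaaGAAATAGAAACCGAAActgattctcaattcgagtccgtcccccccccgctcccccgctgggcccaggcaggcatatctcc
Isg15 had 3 overlapping matches, the nearest beginning 66 bases before the gene's start. Irgm1 had 2 overlapping matches beginning 30 and 24 bases before its start, closer than those of Ifit1 at 104 and 85 bases, and Oas1a had 2 at 20 and 14 bases.

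Facts of the whole series that touch these genes are few. Total counts were 6543013 to 9937008 in knockout and 11890729 to 16458689 in control libraries. Levels are given as CPM, the usual count scaled to the size of the library. Tnfrsf1a, the targeted gene, stood at 40.6 to 46.1 CPM in the knockout libraries and at 54.9 to 81.3 CPM in the control libraries. Transcript of the gene thus remained in the knockout libraries, and a count over the whole gene does not show whether it holds the deleted part. Of 10 listed myofibroblast markers, Col1a1, Vim and Acta2 were at 1459.7 CPM or more in every library, and Des at 42.6 to 108 CPM. Between genotypes 2 of the 10 fell, 4 rose and 4 did not pass, against 21.6% of all genes tested that fell and 21.4% that rose. Of 6 epithelial markers, Epcam, Cdh1 and Vil1 had at most 1 count in a library, Lgr5 at most 5 and Krt8 at most 9. The exception was Krt20, with 4.14 to 5.96 CPM in knockout libraries and 7.38 CPM in control 6, against 0.585 to 0.979 CPM in control 1 to 5. By their profiles the libraries split into 4 sets: knockout 5 with 6, the other knockouts, control 6 by itself and the other controls. Libraries of 1 set correlated at 0.989 to 0.998 (Spearman, over genes), and libraries of the same genotype but different sets at 0.926 to 0.954. Between genotypes the range was 0.882 to 0.976. Control 6 was nearer to knockout 1 to 4, at 0.968 to 0.976, than to control 1 to 5, at 0.952 to 0.954. The sets were seen in the counts and are in no label, so values by set are descriptions.

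**Figure D1:**
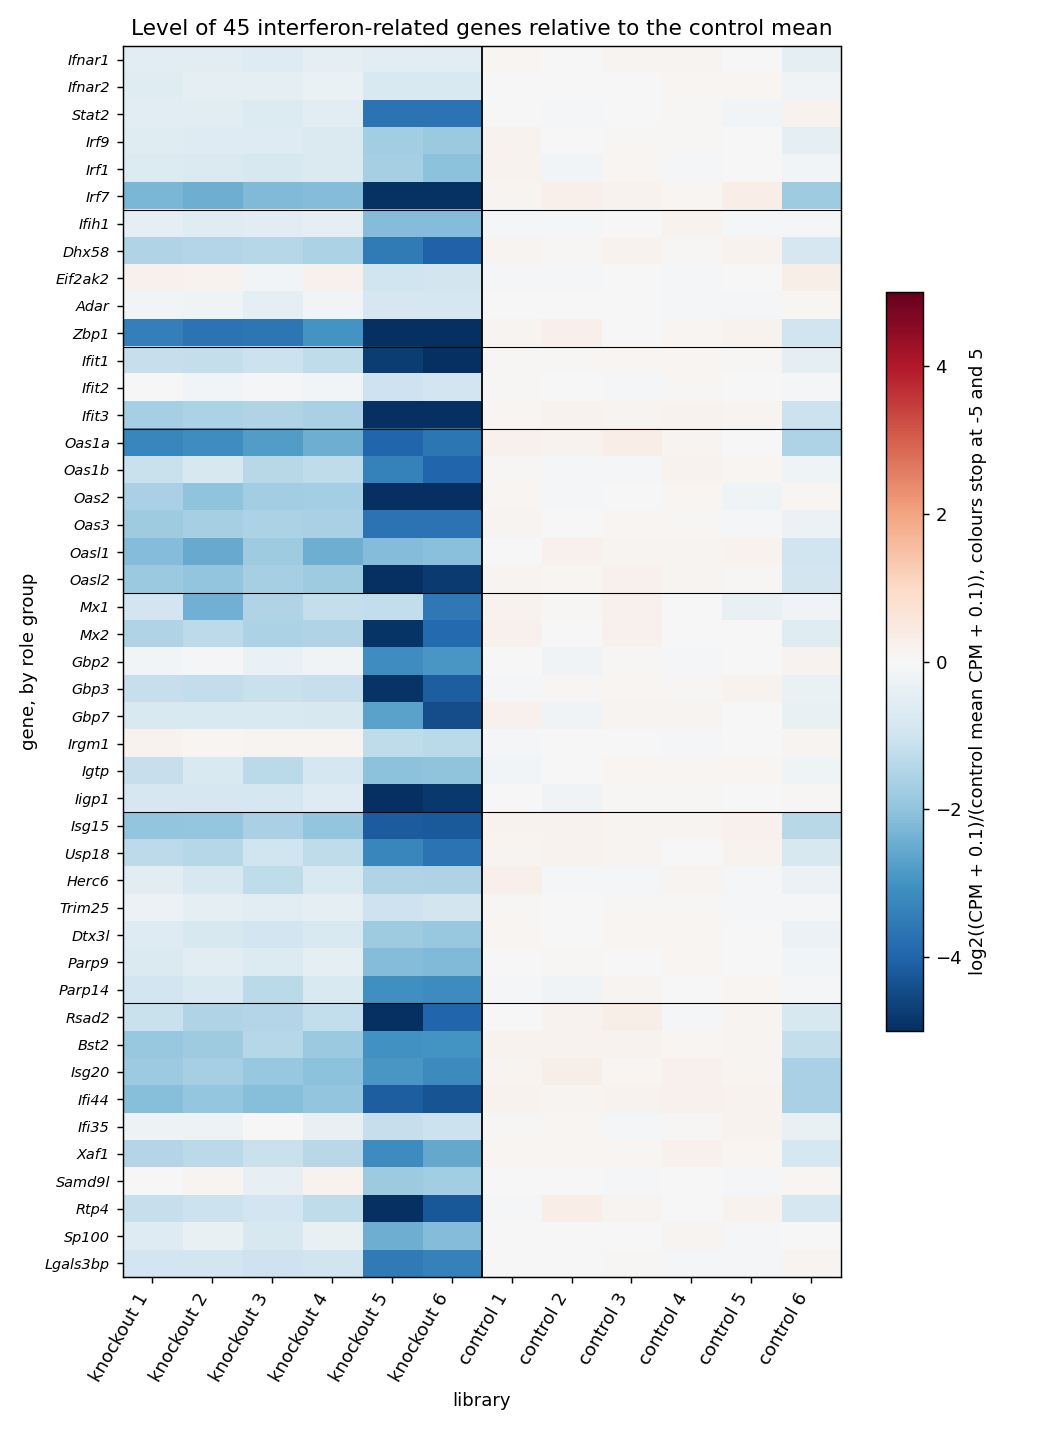
Level of each of the 45 genes (rows, in role groups divided by lines) in each library (columns, knockout left of control), as log2 of CPM plus 0.1 over the control mean plus 0.1, blue for lower. Knockout 5 and 6 are the deepest blue in nearly all rows and knockout 1 to 4 are paler, and control 6 is blue for Irf7, Oas1a, Isg15, Bst2 and Ifi44 among others.

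Of the 6 receptor and signalling genes, 5 fell and Stat2 did not pass. Ifnar1, a receptor chain, had 77.4, 82.0 and 86.9 CPM as the lowest, median and highest knockout library, against 89.0, 125 and 133 CPM in control. All 6 knockout libraries were below all 6 controls, but control 6 was only just above them. Its log2 difference was -0.55 (SE 0.09; edgeR adjusted p = 0.000621). Ifnar2, the other chain, had 31.9, 37.7 and 43.4 CPM in knockout and 48.2, 54.6 and 58.4 CPM in control libraries, without overlap (log2 difference -0.56, SE 0.09; edgeR adjusted p = 0.000512). Unlike most genes of the list, Ifnar1 was level between the knockout sets, at 82.3 CPM in knockout 5 and 6 and 82.5 CPM in knockout 1 to 4.

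Stat2, the STAT protein particular to type I and type III interferon signalling, had 97.8, 98.0, 88.3, 99.4, 10.998 and 10.9 CPM in knockout 1 to 6. In control 1 to 6 it had 139, 133, 141, 147, 128 and 159 CPM. No knockout library reached a control library, yet knockout 5 and 6 lay so far below knockout 1 to 4 that the difference did not pass the test (log2 difference -1.07, SE 0.49; edgeR adjusted p = 0.0965). Without knockout 5 and 6 it passed, at -0.56 (edgeR adjusted p = 0.000126).

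Irf9, the DNA-binding partner of STAT2, had 20.9, 46.7 and 49.8 CPM in knockout and 55.96, 78.4 and 84.6 CPM in control libraries. The groups did not overlap, with knockout 5 and 6 lowest and control 6 the lowest control (log2 difference -0.95, SE 0.22; edgeR adjusted p = 0.00431). Irf1, a factor that both interferon gamma and TNF can induce, had 6.00, 14.7 and 15.5 CPM in knockout and 22.9, 24.9 and 28.1 CPM in control libraries. Control 6, at 23.0 CPM, was within the range of the other controls for this gene (log2 difference -1.03, SE 0.21; edgeR adjusted p = 0.00211).

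Irf7, itself interferon-induced and a factor that amplifies interferon production, showed the widest range of this group. Its levels were 25.6, 22.7, 27.1, 27.6, 3.94 and 3.93 CPM in knockout 1 to 6, against 136, 148, 139, 135, 156 and 36.1 CPM in control 1 to 6. Control 6 was much nearer to knockout 1 to 4 than to the other controls, and still above every knockout library. The log2 difference was -2.77 (SE 0.52; edgeR adjusted p = 0.00109).

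**Figure D2:**
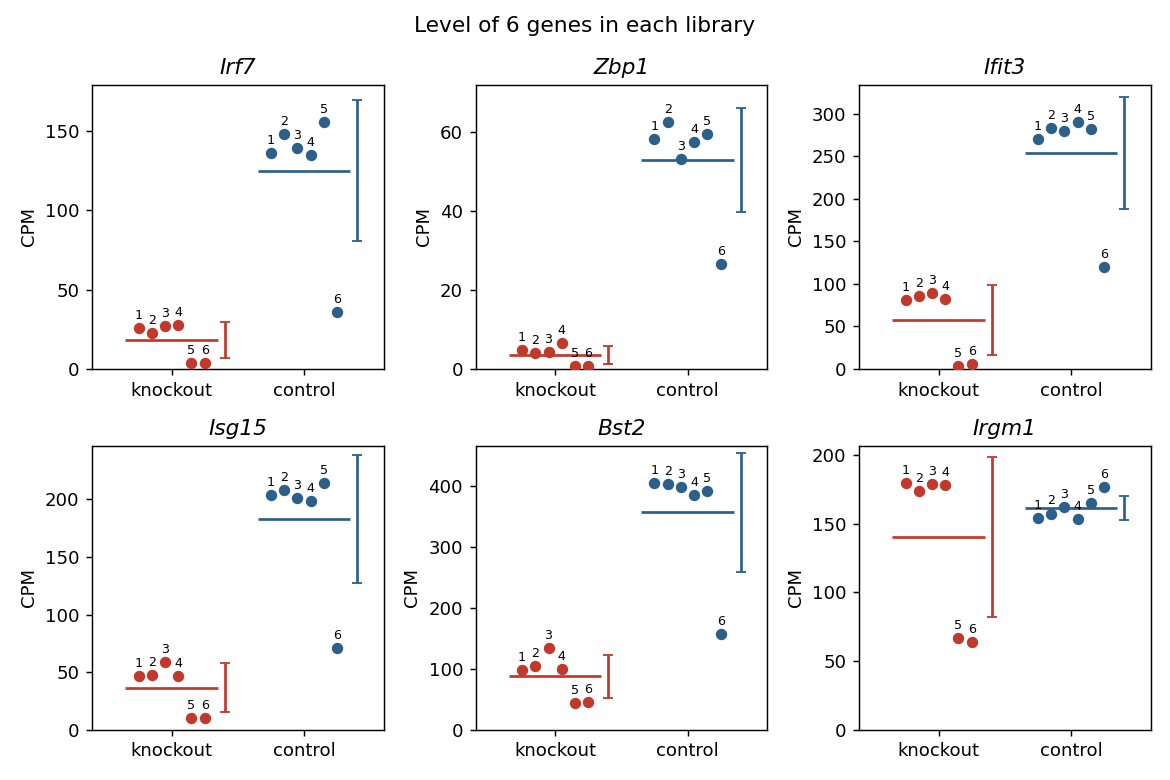
CPM of Irf7, Zbp1, Ifit3, Isg15, Bst2 and Irgm1 in each library (points, numbered by replicate), knockout left of control, with the mean as a line and its SD (n = 6 each) as a bar. In the first 5 genes all knockout points lie below all control points and control 6 stands apart, while for Irgm1 knockout 1 to 4 lie at 174 to 179.7 CPM, among or above the controls.

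Among the sensors of foreign nucleic acid, 4 of 5 fell. Zbp1, which binds Z-form nucleic acid and can start necroptosis, had the largest fall of all 44 genes. Like the others named at the start, it needed control libraries to pass the filter on low counts. It had 4.81, 3.98, 4.27, 6.60, 0.830 and 0.724 CPM in knockout 1 to 6, against 58.4, 62.7, 53.3, 57.5, 59.6 and 26.6 CPM in control 1 to 6. Even control 6, the lowest control, was above every knockout library, and the lower control set was 5.31-fold above the higher knockout set. The log2 difference was -3.92 (SE 0.44; edgeR adjusted p = 3.86e-05).

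Dhx58, which encodes the RNA sensor LGP2, had 1.45, 8.65 and 9.33 CPM in knockout and 14.3, 27.4 and 28.6 CPM in control libraries (log2 difference -1.97, SE 0.40; edgeR adjusted p = 0.00175). The groups did not overlap. Ifih1, the RNA sensor MDA5, and Adar, an RNA-editing enzyme that limits sensing of the cell's own RNA, fell by less, at log2 differences of -0.91 and -0.41. Eif2ak2, the kinase PKR, did not pass (log2 difference -0.16, SE 0.21; edgeR adjusted p = 0.56). It stood at 32.2 and 34.4 CPM in knockout 5 and 6, but at 59.5 to 74.9 CPM in knockout 1 to 4, which overlapped the controls at 60.4 to 78.7 CPM.

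The IFIT proteins bind foreign RNA and block its translation. Ifit3 had 81.1, 85.2, 89.1, 82.4, 3.01 and 5.48 CPM in knockout 1 to 6, against 269.9, 284, 279.7, 291, 282 and 120.1 CPM in control 1 to 6. These values form tiers without overlap, with control 6 between the other controls and knockout 1 to 4, and knockout 5 and 6 far below (log2 difference -2.14, SE 0.66; edgeR adjusted p = 0.0195). Ifit1 had 2.90, 41.8 and 47.0 CPM in knockout and 69.7, 103 and 105 CPM in control libraries, again without overlap (log2 difference -1.71, SE 0.56; edgeR adjusted p = 0.0259). Ifit2, an adjacent gene of Ifit3 on chromosome 19, did not pass (log2 difference -0.34, edgeR adjusted p = 0.126). Its levels were 34.2 to 37.1 CPM in knockout 1 to 4 but 18.3 and 19.4 CPM in knockout 5 and 6, against 36.7 to 39.9 CPM in the controls.

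All 6 genes of the OAS family fell, with log2 differences of -1.65 to -3.19. OAS enzymes answer double-stranded RNA by making a messenger that activates the RNA-cleaving enzyme RNase L, and the OAS-like proteins are their relatives. Oasl1 had 1.67, 1.28, 2.21, 1.38, 1.66 and 1.76 CPM in knockout 1 to 6, against 7.97, 9.11, 8.70, 8.68, 8.89 and 3.88 CPM in control 1 to 6. It was the only tested gene of the list whose knockout 5 and 6 were not below knockout 1 to 4 (log2 difference -2.24, SE 0.22; edgeR adjusted p = 1.97e-05).

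Oas1a had 0.934, 1.68 and 2.87 CPM in knockout and 5.47, 18.1 and 20.1 CPM in control libraries (log2 difference -3.19, SE 0.34; edgeR adjusted p = 2.76e-05). The groups did not overlap, and control 6 held the lowest control value. Oas2 was near the detection limit in knockout 5 and 6, at 0 and 0.103 CPM, against 13.5 to 16.9 CPM in the controls. Both Oas2 and Oas1b needed control libraries to pass the filter on low counts. Oas1a and Oas1b belong to a cluster of near-identical copies, and C57BL/6 mice are known to carry a truncated Oas1b, so the split of reads between these copies is uncertain.

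Of the dynamin-like and immunity-related GTPases, which attack viruses or the vacuoles of intracellular microbes, 4 of 7 tested genes fell and 3 did not pass. Igtp, an immunity-related GTPase also called Irgm3, had 5.08, 8.95 and 12.6 CPM in knockout and 18.3, 22.2 and 23.2 CPM in control libraries, without overlap (log2 difference -1.30, SE 0.21; edgeR adjusted p = 0.000433). Mx2 had 0.207, 3.07 and 3.59 CPM in knockout and 6.04, 9.32 and 10.7 CPM in control libraries (log2 difference -2.02, SE 0.44; edgeR adjusted p = 0.00304). Mx2 needed control libraries to pass the filter on low counts. Its neighbour in function Mx1 was not tested, at 0 to 0.523 CPM in knockout and 0.816 to 1.30 CPM in control libraries. C57BL/6 mice are known to carry defective Mx genes.

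Guanylate-binding proteins split in this comparison. Gbp3 and Gbp7, adjacent on chromosome 3, fell (log2 differences -1.69 and -1.27; edgeR adjusted p = 0.0151 and 0.0324), but the call on Gbp7 was lost without knockout 5 or without any one of control 1, 3, 4 and 5 (adjusted p = 0.0504 to 0.0619). Gbp7, and Iigp1 below, needed control libraries to pass the filter on low counts. Gbp2 did not pass (log2 difference -0.67; edgeR adjusted p = 0.244), with 26.3 to 31.3 CPM in knockout 1 to 4 but 3.74 and 4.24 CPM in knockout 5 and 6, against 29.4 to 37.6 CPM in the controls. Irgm1, a regulator of the other immunity-related GTPases, had 179.7, 174, 179.1, 178, 67.0 and 63.6 CPM in knockout 1 to 6, against 154, 157, 162, 153, 165 and 176 CPM in control 1 to 6 (log2 difference -0.20, SE 0.26; edgeR adjusted p = 0.55). Knockout 1 to 4 lay among or above the controls and knockout 5 and 6 far below, so that without knockout 5, knockout 6 and control 6 its difference turned to 0.17 (edgeR adjusted p = 0.000892). Iigp1, an effector GTPase, did not overlap between groups, at 0.207 to 11.2 CPM in knockout and 15.4 to 18.2 CPM in control libraries, and did not pass (edgeR adjusted p = 0.0723; 3.55e-05 without knockout 5 and 6).

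All 7 genes of the ISG15, ubiquitin and ADP-ribosylation group fell. Isg15, a ubiquitin-like protein that is joined to other proteins, had 46.7, 47.5, 59.0, 46.2, 10.1 and 9.93 CPM in knockout 1 to 6, against 204, 208, 201, 199, 214 and 70.7 CPM in control 1 to 6 (log2 difference -2.33, SE 0.45; edgeR adjusted p = 0.00135). Usp18, which removes ISG15 and dampens the receptor, fell with it (log2 difference -1.70, SE 0.40), as did Herc6, the mouse ligase for ISG15. Herc6 had 6.21, 8.98 and 12.8 CPM in knockout and 15.1, 17.7 and 21.8 CPM in control libraries, without overlap (log2 difference -1.02, SE 0.18; edgeR adjusted p = 0.000888).

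Parp14, Dtx3l and Parp9 are adjacent on chromosome 16, and their products modify proteins by ADP-ribosylation and ubiquitination. Dtx3l had 10.6, 21.9 and 25.5 CPM in knockout and 32.8, 41.4 and 42.8 CPM in control libraries (log2 difference -1.06, SE 0.21; edgeR adjusted p = 0.00135). Parp9, its partner protein, had a log2 difference of -0.97 and Parp14 one of -1.38. Trim25, a ubiquitin ligase that acts on RNA sensing, had the smallest difference of this group, -0.60.

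In the mixed group of other effectors, 8 of 10 fell. Bst2, also called tetherin, holds budding virus at the cell surface. It had 97.2, 105, 134, 99.1, 43.8 and 44.9 CPM in knockout 1 to 6, against 405, 404, 399, 386, 391 and 158 CPM in control 1 to 6 (log2 difference -2.03, SE 0.31; edgeR adjusted p = 0.000283). Isg20, an exonuclease, had 3.52, 8.24 and 10.3 CPM in knockout and 10.5, 36.1 and 40.1 CPM in control libraries (log2 difference -2.17, SE 0.34; edgeR adjusted p = 0.000309). Control 6, at 10.5 CPM, was next to the highest knockout library for Isg20.

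The other called genes of that group were Ifi44, Rsad2, Xaf1, Rtp4, Lgals3bp and Sp100, with log2 differences from -2.48 for Ifi44 to -0.94 for Sp100. Rsad2 encodes viperin, an antiviral enzyme, and Xaf1 a partner of the XIAP apoptosis inhibitor. Of these, Rsad2 needed control libraries to pass the filter on low counts. The call on Sp100, a nuclear body protein, was lost without control 4 (log2 difference -0.91; edgeR adjusted p = 0.0514). Lgals3bp, a secreted glycoprotein, had 271 to 287 CPM in knockout 1 to 4 but 47.5 and 52.6 CPM in knockout 5 and 6, against 516 to 601 CPM in the controls. Ifi35 and Samd9l did not pass (edgeR adjusted p = 0.069 and 0.319). For Ifi35, control 6 at 32.4 CPM lay below 4 knockout libraries, and for Samd9l knockout 1 to 4 at 53.9 to 79.6 CPM overlapped the controls at 66.1 to 76.6 CPM.

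**Figure D3:**
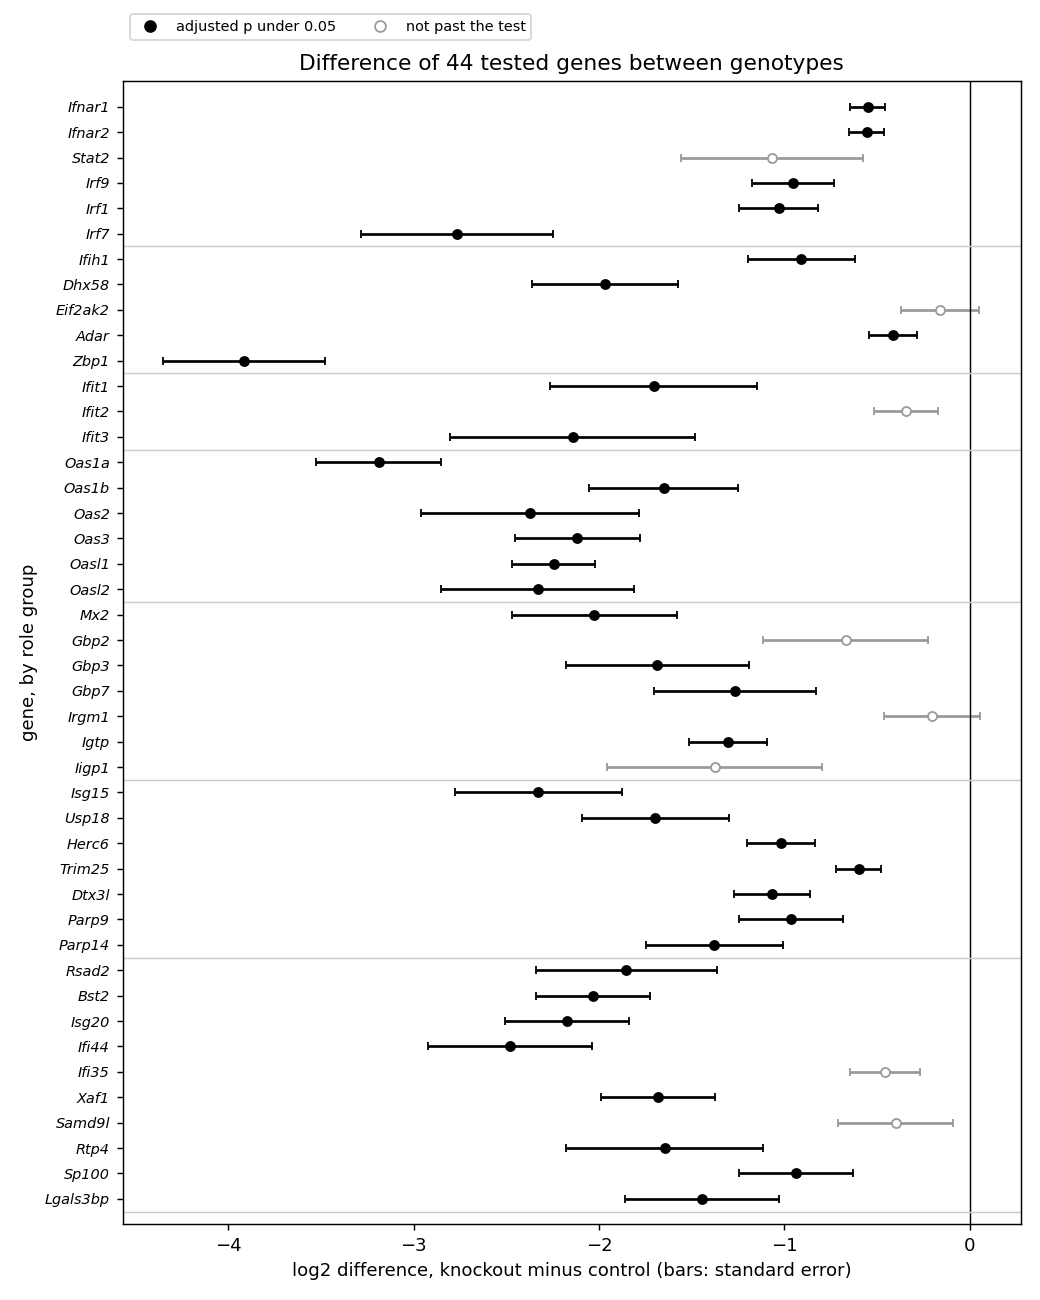
Log2 difference of each of the 44 tested genes, knockout minus control, with its standard error, in role groups divided by lines. Filled points passed an adjusted p of 0.05 (36 genes) and open points did not (8 genes), and all 44 lie below 0.

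Libraries also varied within a genotype, more among the knockouts than among the controls. Of the 44 genes, 43 were lower in knockout 5 and 6 than in knockout 1 to 4, against 51.1% of all genes tested. At least a 2-fold gap was found for 35 of the 44, against 13.4% of all genes. The median fold, knockout 1 to 4 over knockout 5 and 6, was 3.91 for the list and 1.01 for all genes. Within the controls, 34 of the 44 genes were lower in control 6 than in control 1 to 5, against 51.0% of all genes, with a median fold, control 1 to 5 over control 6, of 1.30 for the list. Control 6 was at least 2-fold lower for 11 genes, against 4.56% of all genes. Among these were Irf7, Zbp1, Ifit3, Oas1a, Isg15 and Bst2.

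All 6 knockout libraries were below all 6 controls for 38 of the 44 genes, against 12.5% of all genes tested. By sets, each knockout set was below each control set for 40 of the 44, against 22.4%, and above for none, against 21.3%. In 32 of the 44 the order from low to high was knockout 5 and 6, knockout 1 to 4, control 6 and control 1 to 5, against 10.3% of all genes. Only this order, the one most of the list shows, was counted, so the comparison is a description and no test. Knockout 5 and 6 had a median log2 difference of -3.19 from control 1 to 5 and of -2.46 from control 6. For knockout 1 to 4 the medians were -1.004 from control 1 to 5 and -0.49 from control 6. These 4 contrasts share sets and are on the scale of log2 of CPM plus 0.1, and over all genes tested the medians were -0.02 to 0.01.

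**Figure D4:**
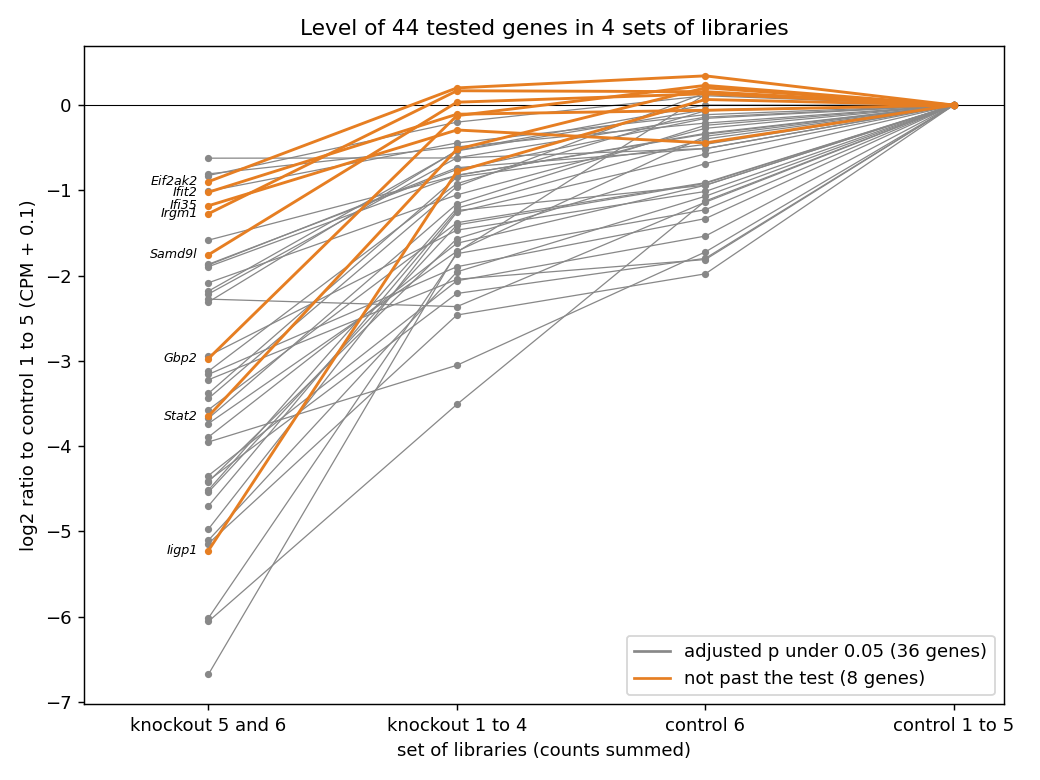
Level of each of the 44 tested genes in the 4 sets of libraries as log2 of CPM plus 0.1 over that of control 1 to 5, knockout sets left of control sets, 1 line per gene. The 8 genes that did not pass the test (orange, named) lie low in knockout 5 and 6, and Eif2ak2, Irgm1 and Samd9l reach or pass the level of control 1 to 5 in knockout 1 to 4.

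With knockout 5 and 6 left out, 39 of 45 tested genes fell, against 27.5% of all genes, and none rose, against 24.5%. In that fit 40 of the 45 had an unadjusted p under 0.05, against 58.5% of all genes. Leaving out control 6 as well gave 40 lower and 2 higher (Eif2ak2 and Irgm1), against 36.4% and 34.9% of all genes, and 42 of the 45 had an unadjusted p under 0.05, against 73.2%. In that fit genotype and set cannot be told apart. When the counts of each set were summed, so that 2 knockout sums stood against 2 control sums, all 45 log2 differences were below 0, but edgeR called 0 of 13132 genes. In that fit 17 of the 45 genes had an unadjusted p under 0.05 (37.8%), against 7.97% of all genes. The adjusted p-values of the 45 genes were 0.613 to 0.777.

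Genes upstream of and around the response were read from lists chosen with earlier results of these data known, and the counts in them stand against 21.6% of all genes tested that fell and 21.4% that rose. The interferons themselves were at the detection limit, since 10 of 12 listed interferon genes had no count in any library. Ifnb1, interferon beta, had 3 counts over all control libraries, 1 in each of 3 of them, and Ifna4 had 1. No interferon gene had a count in a knockout library, which allows a level of up to 0.0573 CPM over the 6 knockout libraries, by counting error only. No difference in the ligands was detectable at this depth.

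The other interferon receptors and the Janus kinases were tested for 6 of 7 listed genes, and none passed (0 higher and 0 lower, log2 differences -0.33 to 0.22). Of 8 other STAT and IRF factors tested, 2 fell and 6 did not pass, which is near the share of all genes. Irf8, a factor of myeloid cells with 23 counts in its highest library, was at 0 to 0.931 CPM in knockout and 0.954 to 1.73 CPM in control libraries (log2 difference -1.58, SE 0.45; edgeR adjusted p = 0.0136). It needed control libraries to pass the filter on low counts, so its call is no support for a difference. Irf2bp2, a partner of IRF2, had 81.0 to 118 CPM in knockout and 99.3 to 145 CPM in control libraries, with overlap at control 6 (log2 difference -0.50, SE 0.12; edgeR adjusted p = 0.00518).

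Of 9 genes that sense nucleic acid or carry that signal to interferon production, 3 fell, 2 rose and 4 did not pass, counts too small to set apart from the shares over all genes. Tmem173, which encodes STING, the adaptor of cytosolic DNA sensing, had 27.7, 35.6 and 36.6 CPM in knockout and 57.9, 63.2 and 67.5 CPM in control libraries, without overlap. Its log2 difference was -0.92 (SE 0.09; edgeR adjusted p = 1.66e-05), and control 6 was close to the other controls. Ticam1, the adaptor TRIF of the double-stranded RNA receptor TLR3, was at 9.83 to 21.6 CPM in knockout and 25.8 to 39.1 CPM in control libraries (log2 difference -1.04, SE 0.21; edgeR adjusted p = 0.0017). Tbk1, the kinase downstream of both, rose to 29.7 to 48.8 CPM, against 28.9 to 37.7 CPM in control libraries, with overlap (log2 difference 0.43, SE 0.12; edgeR adjusted p = 0.0123).

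Mb21d1, the DNA sensor cGAS, was called higher (log2 difference 1.10, SE 0.41; edgeR adjusted p = 0.0449), but this rested on knockout 5 and 6, at 20.0 and 24.2 CPM, against 4.14 to 6.07 CPM in control libraries. Knockout 1 to 4 were at 4.49 to 7.32 CPM, and without knockout 5 and 6 the adjusted p was 0.567. The call was also lost without any one of knockout 5, knockout 6 and control 1 to 6 (edgeR adjusted p = 0.065 to 0.119).

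Among 7 negative regulators, 3 fell, 1 rose and 3 did not pass, again too few to set apart from all genes. Socs3, a feedback inhibitor of cytokine receptors that STAT3 induces, had 6.38, 7.06, 7.28, 6.28, 11.9 and 10.2 CPM in knockout 1 to 6, against 41.2, 44.7, 40.1, 39.2, 44.1 and 26.4 CPM in control 1 to 6. The groups were far apart, and here knockout 5 and 6 were above knockout 1 to 4 (log2 difference -2.25, SE 0.19; edgeR adjusted p = 5.14e-06). Socs1, the inhibitor more closely tied to interferon signalling, was at 2.62 to 4.05 CPM in knockout and 3.69 to 8.36 CPM in control libraries (log2 difference -0.97, SE 0.19; edgeR adjusted p = 0.0016). Ptpn6 was also called lower, at 2 to 13 counts in a knockout library and 11 to 24 in a control library. Its CPM overlapped between groups, and it needed control libraries to pass the filter on low counts. Cish rose, at 5.65 to 13.8 CPM in knockout and 2.80 to 6.74 CPM in control libraries, with overlap at control 6 (log2 difference 1.05, SE 0.28; edgeR adjusted p = 0.00905).

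A further list of 35 interferon-induced genes had 32 tested, of which 25 fell, none rose and 7 did not pass, against 21.6% of all genes that fell and 21.4% that rose. The median log2 difference was -1.15, against 0.02 over all genes, and 10 of the 32 needed control libraries to pass the filter. Apol9a, an apolipoprotein L family member, had 11.7, 17.8 and 21.1 CPM in knockout and 32.6, 38.4 and 41.9 CPM in control libraries (log2 difference -1.17, SE 0.14; edgeR adjusted p = 5.99e-05). Its near-identical copy Apol9b can share its reads. Parp10, an ADP-ribosyltransferase, had 6.85, 14.3 and 16.5 CPM in knockout and 24.0, 42.6 and 47.9 CPM in control libraries (log2 difference -1.71, SE 0.23; edgeR adjusted p = 0.000114). Neither gene overlapped between groups.

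Most tested markers of leukocytes, cells that carry many interferon-stimulated genes, were also lower in the knockout libraries. Of 22 listed markers 15 were tested, and 12 fell and none rose, against 21.6% of all genes that fell and 21.4% that rose. The other 3, Ptprc, Csf1r and Cd14, did not pass. Of the 15, 7 reached the filter's level in fewer than 6 knockout libraries and needed control libraries to pass. Mrc1, with 1 to 7 counts in a knockout library, reached it in none of them. Of the 12 calls, 6 were on these 7 markers and so leaned on the group where the level was higher. The summed level was 47.6 to 79.5 CPM in knockout and 122 to 167 CPM in control libraries, and Siglech and Cd3e, markers of plasmacytoid dendritic cells and T cells, were at 0 in all 12 libraries.

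Within the knockout group the leukocyte sums were 61.5 and 79.5 CPM in knockout 5 and 6 but 47.6 to 54.3 CPM in knockout 1 to 4. The summed interferon-related genes ran the other way, at 609 and 620.2 CPM in knockout 5 and 6 but 1756 to 1794 CPM in knockout 1 to 4. Among the controls, control 6 had an interferon sum of 2603 CPM, against 3547 to 3636 CPM in control 1 to 5. Its leukocyte sum, 167 CPM, was the highest through Lyz2, a lysozyme gene of myeloid cells, at 93.2 CPM against 49.2 to 61.4 CPM in control 1 to 5. Without Lyz2 the leukocyte sums were 20.3 to 42.5 CPM in knockout libraries, 74.3 CPM in control 6 and 72.3 to 78.0 CPM in control 1 to 5. In control 6, 6 of the 15 tested markers were lower than in control 1 to 5, among them the complement genes C1qa, C1qb and C1qc. The part of leukocytes in the difference between genotypes was not tested.

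**Figure D5:**
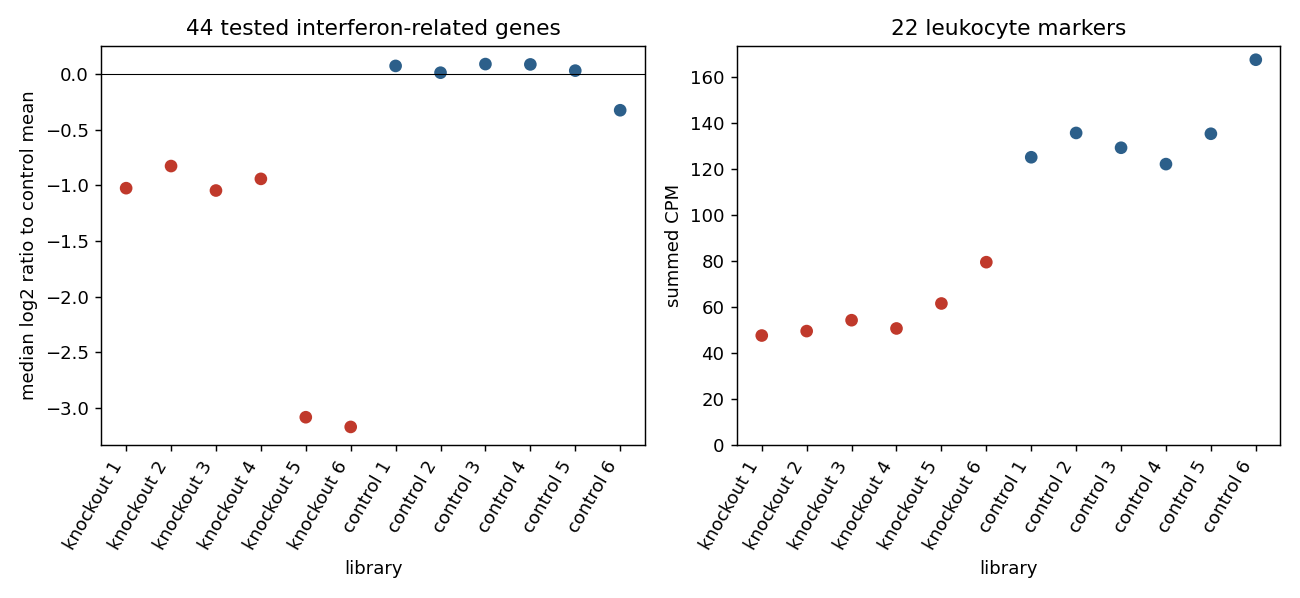
Left, the median over the 44 tested genes of log2 CPM plus 0.1 relative to the control mean, per library (knockout red, control blue). Right, the summed CPM of 22 leukocyte markers per library, where knockout 5 and 6 are the highest knockout libraries although they are the lowest on the left.

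Knockout 5 and 6 also differed from the rest in other respects. Their counts held 7.01% and 8.25% of Rn45s, the ribosomal RNA precursor, against 1.63% to 2.097% in knockout 1 to 4 and 0.351% to 1.19% in control libraries, and their 10 summed myofibroblast markers were at 13446 and 13324 CPM, against 32792 to 33275 CPM in the other knockouts and 24655 to 34791 CPM in control libraries. Of the 10 markers, 9 were lower in knockout 5 and 6 than in knockout 1 to 4. Col1a1 was at 2048 CPM in knockout 5 and 6 but 11121 CPM in knockout 1 to 4, and Acta2 at 2818 against 6106 CPM. Vim was the exception, at 3888 CPM in knockout 5 and 6 and 3720.4 CPM in knockout 1 to 4. Leaving Rn45s out changed no call among the 45 genes. The part of these features in the levels of knockout 5 and 6 was not tested.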

How the data were processed

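For each of 12 libraries the authors deposited expected counts per gene, which RSEM estimates and which can hold decimals. The submitters' processing notes list RSEM 1.2.15, Bowtie2 2.1.0 and a human genome build, although the rows are mouse symbols. With annotation and strand setting not given in the sources used here, near-identical copies and genes that overlap on opposite strands remain uncertain. Libraries were oligo-dT selected and strand-specific, per the labels' protocols. Columns were matched to samples by name.

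Counts were rounded, and knockout was tested against control by edgeR quasi-likelihood (edgeR 4.0.16, R 4.3.3), with genotype as the only term, TMM scaling and filterByExpr (minimum count 10, minimum total 15), at a Benjamini-Hochberg adjusted p of 0.05. The standard error is the log2 difference over the square root of F. CPM uses the TMM-scaled library sizes, and set levels use summed counts. The scripts were tested on simulated data with independent libraries and no sets, so that check cannot speak to errors that the sets may bring. Alternatives used DESeq2 1.42.0 and limma 3.58.1. No pair of libraries agreed within counting noise (chi-square per degree of freedom 1.38 to 9.84 within a set).

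The members and lists were chosen with earlier results of these data known. By rule, full values are given for the receptor and signalling genes, for the 2 genes with the smallest p in each other role group, and for up to 2 called genes per direction in each pathway list. Oas2, Gbp2, Irgm1, Iigp1, Eif2ak2, Ifit2, Lgals3bp, Ifi35, Samd9l, Isg15, Usp18 and other genes beyond this rule were chosen after their values were seen. Promoter windows are from RefSeq, GRCm38.p6.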

Additional observations from a re-analysis of the deposited data

Results flagged for a closer look

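Of 112 groups of 6 libraries checked (44 interferon-related genes, 11 named pathway genes and Tnfrsf1a, in both genotypes), 27 held a library that stood apart from the other 5 by most of the group's range. Chance alone flags about 1 in 20 such groups. Control 6 was that library in 25 cases, 23 times as the lowest control.

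As the lowest control library, control 6 had 89.0 CPM for Ifnar1, 55.96 for Irf9, 36.1 for Irf7, 14.3 for Dhx58, 26.6 for Zbp1, 69.7 for Ifit1 and 120.1 for Ifit3. It likewise had 5.47 CPM for Oas1a, 3.88 for Oasl1, 61.8 for Oasl2, 70.7 for Isg15, 34.7 for Usp18, 32.8 for Dtx3l, 158 for Bst2, 10.5 for Isg20, 26.1 for Ifi44 and 24.9 for Xaf1. Among the pathway genes it had 99.3 CPM for Irf2bp2, 25.8 for Ticam1, 26.4 for Socs3, 3.69 for Socs1 and 24.0 for Parp10, and for Tnfrsf1a it had 54.9 CPM.

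Control 6 was the highest control for Eif2ak2, at 78.7 CPM, and for Tbk1, at 37.7 CPM. Control 4 was the highest for Ifih1, at 49.7 CPM, and for Sp100, at 34.2 CPM. No knockout library was singled out, since knockout 5 and 6 lie apart as a pair.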

How the results depend on the processing

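The count of genes of the list that fell was 36 in the reported fit and 34 to 38 when any 1 of the 12 libraries was left out. It was 36 with DESeq2 size factors, a stricter filter, Rn45s left out or the replicate block, 37 with no filter or DESeq2, and 39 with limma-voom. Over all genes, 5219 were called, and 4432 to 6069 with 1 library left out. Leaving out knockout 5, knockout 6 and control 6 gave 8827 called genes and 2 genes of the list that rose, against 0. Sums of the 4 sets gave 0 called genes, 0 that fell and 0 other pathway genes called, against 36 pathway genes; each set is then 1 sample. With knockout 5 and 6 left out, Eif2ak2 turned to 0.12 and Irgm1 to 0.14 on the log2 scale, and with control 6 left out too Eif2ak2 was at 0.19, Irgm1 at 0.17 and Samd9l at 0.025; the cause was not tested. The replicate block called 3974 genes, and the call on Tbk1 was lost (adjusted p = 0.0669), as was that on Mb21d1 (0.166). Deviations of same-numbered libraries from their group means correlated at -0.36 to 0.18. They include the gaps between sets, which fall on different numbers in knockout and control, so the check cannot decide whether libraries were paired. Depth limits what can be said of Mx1, Irf8, Ptpn6 and the interferon genes.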
